A study of Mus musculus with 2 samples.

Results

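The type I interferon response was examined through 40 listed genes that sense foreign nucleic acid, carry the interferon signal or act as its effectors. Each gene was read from a probe set annotated to it alone, taking the brightest where there were several. That gave a value for 38 of the 40, among 19938 named genes on the array. Ifi44 had no such probe set, and Isg15 is annotated to one shared with another gene, so neither has a value here.

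The cells were C2C12, an established line of mouse myoblasts, grown to confluence and then kept for 7 days in 2% horse serum so that they formed myotubes. One culture was infected with Ad-caERα, an adenoviral vector for a constitutively active estrogen receptor α, and its control with Ad-DsRed, a vector for the red fluorescent protein DsRed. Both received the same multiplicity of infection, 30, for 48 h, and total RNA from each was hybridised to 1 Affymetrix array. Both cultures therefore carried an adenoviral vector, and uninfected cells were not analysed here. Esr1, the estrogen receptor α gene, was at 8.44 in Ad-caERα and 7.38 in Ad-DsRed on the log2 scale, higher in the culture titled Ad-caERα. Another label of that sample writes sigma in place of the α, and the title was followed. The labels name neither the promoter of either insert, nor the part of the receptor carried, nor the share of cells infected. With 1 array per vector there is no replicate check, no test was possible, and every difference below compares these 2 arrays only.

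Values are log2 signals, and each difference is Ad-caERα minus Ad-DsRed. A detection floor of 5.11 was set from olfactory and vomeronasal receptor genes, which are read as silent in muscle cells. A gene above that floor on at least 1 array was called measured, and 32 of the 38 members were. A fold is only a lower bound if 1 of the arrays gave a signal under the floor. Differences between probe sets of the same gene had an SD of 0.13 over 770 genes, which is technical spread within these arrays and not the spread between cultures. The SD of the difference was 0.22 over the receptor probe sets and 0.27 over all 13554 measured genes. The signal of 1 gene's probe set cannot be set against another's, and a lower signal cannot tell fewer responding cells from less RNA per cell.

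Cells detect viral RNA with cytosolic helicases and endosomal receptors, which switch on interferon β through adaptor proteins and the factors IRF3 and IRF7. Secreted interferon binds the IFNAR receptor, whose kinases JAK1 and TYK2 activate transcription factors that include STAT2 and IRF9. These bind the interferon-stimulated response element (ISRE) and induce antiviral effectors as well as many of the sensors and factors themselves. Skeletal muscle cells carry this pathway and respond to interferon, most visibly in inflammatory myopathies.

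Members of the interferon pathway mostly had a lower signal in Ad-caERα than in Ad-DsRed, and the 5 members furthest from 0 were effectors. As a group the effectors were no further out than the sensors, with medians of -0.41 and -0.47. On the values as deposited 5 members were lower by at least 2-fold, against 0.0959% of all measured genes. They were Ifit1, Ifit3, Usp18, Rtp4 and Oasl2, all of them effectors. No member was higher by 2-fold, against 0.59% of all measured genes. At 1.5-fold 9 members were lower, against a background of 0.885%, and 0 were higher, against 1.82%. At the shares of 0.59% and 1.82%, 32 genes would show few or none higher, so the counts of 0 carry little information. Of the measured members 25 lay below 0 and 7 above, whereas 48.8% of all measured genes lay below 0. Counting all 38 members with a value, whatever their signal, 31 lay below 0. The median difference was -0.35 over the measured members and also over all 38, against 0.0017 over all measured genes. A count below 0 was not particular to the members. Among measured markers, 10 of 12 for myotubes, 8 of 9 for undifferentiated or dividing cells and 7 of 9 for fibroblasts lay below 0. Their medians were -0.083, -0.23 and -0.15. Of 26 measured ribosomal protein genes 3 lay below 0, with a median of 0.10.

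**Figure D1:**
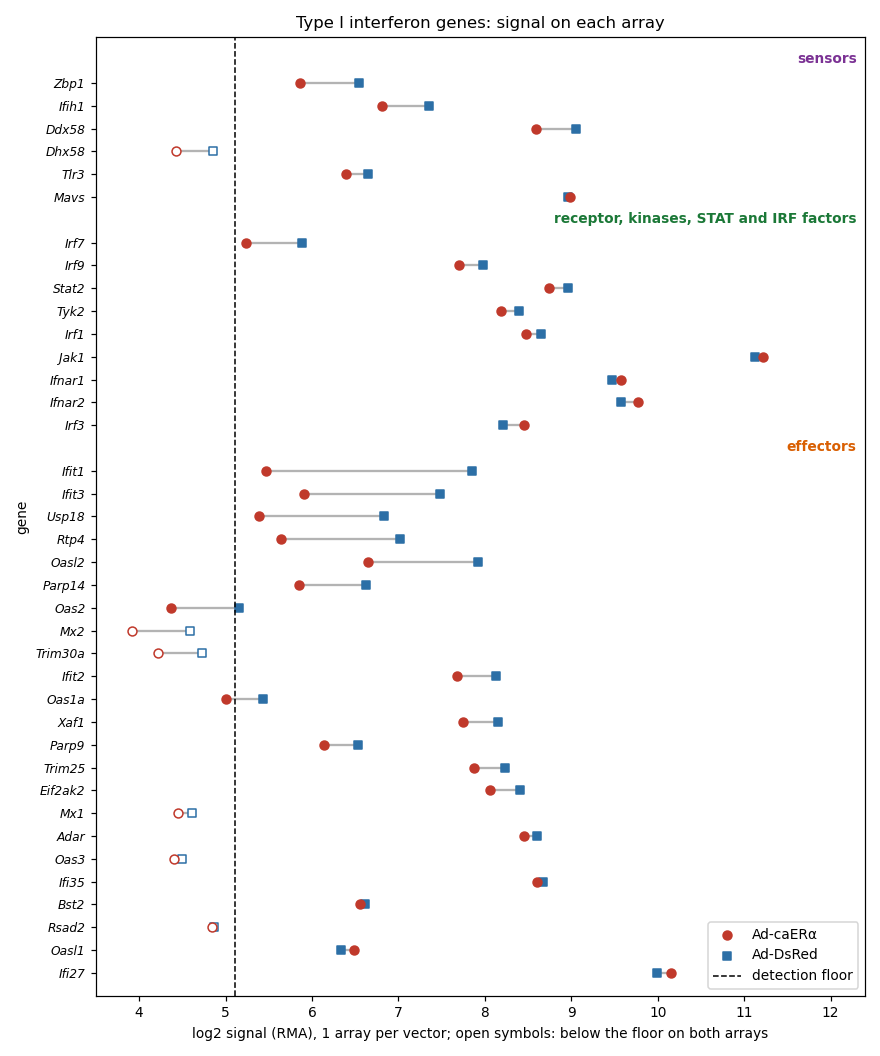
Log2 signal of each of the 38 members on the Ad-caERα array (red circles) and the Ad-DsRed array (blue squares), grouped by role and sorted by difference, with the detection floor of 5.11 dashed. Ifit1 has the longest connecting line, at 5.47 in Ad-caERα and 7.85 in Ad-DsRed, while Mavs, Jak1, Ifnar1, Ifnar2, Irf3, Oasl1 and Ifi27 are the measured members with the red symbol to the right.

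Among the 6 sensors, 5 were measured, 4 of these lay below 0 and none reached 2-fold. Over all measured genes 0.0959% were 2-fold lower and 0.59% higher, shares at which 5 genes would show few or none. Zbp1, which binds left-handed Z-form nucleic acid and can trigger necroptosis, was at 5.86 in Ad-caERα and 6.55 in Ad-DsRed, a difference of -0.69 or 1.61-fold lower. It was the sensor with the largest difference, and 0.376% of measured genes had a lower one. Ifih1, which encodes MDA5, the helicase for long double-stranded RNA, was at 6.81 in Ad-caERα and 7.35 in Ad-DsRed, or 1.45-fold lower. Ddx58, which encodes RIG-I, the helicase that recognises triphosphate RNA ends, was at 8.59 in Ad-caERα and 9.06 in Ad-DsRed, or 1.38-fold lower. Both helicases are themselves induced by interferon, and their differences of -0.54 and -0.47 stand beside an SD of 0.27 over all measured genes.

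The remaining sensing genes differed less or were too dim to read. Tlr3, the endosomal receptor for double-stranded RNA, was at 6.39 in Ad-caERα and 6.64 in Ad-DsRed, a difference of -0.26. Mavs, the mitochondrial adaptor through which both helicases signal, was at 8.99 in Ad-caERα and 8.96 in Ad-DsRed. Its difference of 0.027 lay well inside the spread between probe sets. Dhx58, which encodes LGP2, a helicase of the same family that lacks the signalling domain, was below the floor on both arrays, at 4.43 in Ad-caERα and 4.86 in Ad-DsRed. The median over the 5 measured sensors was -0.47.

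The receptor chains, their kinases and the STAT and IRF factors lay on both sides of 0. All 9 were measured, 5 lay below 0 and 4 above, and their median was -0.17. That median was -0.041 with either higher floor, which leaves out Irf7, and the mean was -0.10. Ifnar1, the receptor chain that binds TYK2, was at 9.58 in Ad-caERα and 9.47 in Ad-DsRed. Ifnar2, the chain that binds JAK1 and STAT2, was at 9.77 in Ad-caERα and 9.57 in Ad-DsRed. Jak1 was at 11.21 in Ad-caERα and 11.13 in Ad-DsRed. These differences, of 0.11, 0.19 and 0.087, were all above 0 and smaller than the SD of 0.27 over all measured genes. Tyk2, the other receptor kinase, had a difference of -0.21, at 8.19 in Ad-caERα and 8.40 in Ad-DsRed.

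Of the transcription factors, Irf7 stood lowest and Irf3 highest. Irf7, the interferon-induced factor that amplifies interferon α production, was at 5.24 in Ad-caERα and 5.89 in Ad-DsRed, or 1.57-fold lower, with 0.465% of measured genes lower still. Its Ad-caERα signal lay only just above the floor. Irf3, the factor that is present before infection and is activated by phosphorylation, was at 8.46 in Ad-caERα and 8.20 in Ad-DsRed, a difference of 0.25. Irf3 had the highest difference of the 32 measured members.

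Stat2 and Irf9, whose proteins bind the ISRE together, were both slightly lower. Irf9, which provides DNA binding, was at 7.70 in Ad-caERα and 7.98 in Ad-DsRed, a difference of -0.28. Stat2 was at 8.74 in Ad-caERα and 8.97 in Ad-DsRed, a difference of -0.23. Irf1, a factor induced chiefly by interferon γ, had 2 probe sets, with differences of -0.17 for the brighter and -0.36 for the dimmer.

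Effectors held all 5 members past 2-fold. Of 25 listed effectors 18 were measured, 16 of these lay below 0, and the median was -0.41. Over all 23 effectors with a value the median was the same to 2 decimals and 21 lay below 0. The mean over the measured effectors was -0.67, below the median because a few genes lay far out. Besides Ifi44 and Isg15, Oas3, Mx1, Mx2, Rsad2 and Trim30a give no fold, since they were below the floor on both arrays.

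The IFIT proteins bind viral RNA and block its translation, and their 3 genes gave unequal differences. Ifit1 was at 5.47 in Ad-caERα and 7.85 in Ad-DsRed, or 5.22-fold lower. Only 1 of the 13554 measured genes, the chemokine gene Ccl2, had a lower difference. Ifit3 was at 5.91 in Ad-caERα and 7.48 in Ad-DsRed, or 2.97-fold lower, and 4 measured genes had a lower difference. Ifit2, which lies beside Ifit3 in the RefSeq annotation with no protein-coding gene between, was only 1.37-fold lower, at 7.67 in Ad-caERα and 8.13 in Ad-DsRed. The family thus ran from -2.38 through -1.57 to -0.45.

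The promoters of these genes are shown because the ISRE is the element through which type I interferon acts on its target genes. Sequences are from RefSeq, build GRCm38.p6. The 250 bases before each start listed in a promoter table were searched for the ISRE core, on both strands, overlapping matches included. The core is GAAA, any 2 bases and GAAA again. A gene can have several listed starts, and the one with the most matches is shown. For Ifit1 the whole window is given. For Ifit3 and Oas1a only 30 bases around each match are given, because their windows overlap the span of the annotated gene. Their listed starts therefore lie inside that span, and positions are counted from the listed start. Ifit1, Ifit3 and Oas1a were picked as the measured members with the lowest differences among those that hold a match. Irf3 was picked as the measured member with the highest difference, and it holds no match. It is 1 of 20 measured members with a searched promoter and no match, as are Oasl2 and Ifit2, at -1.28 and -0.45. The sequences shown therefore cannot tell whether lower members hold the match more often. Capitals mark the ISRE core, which reads as its reverse complement in Ifit1 and Ifit3.
Ifit1, chr19:34640639-34640888, plus strand: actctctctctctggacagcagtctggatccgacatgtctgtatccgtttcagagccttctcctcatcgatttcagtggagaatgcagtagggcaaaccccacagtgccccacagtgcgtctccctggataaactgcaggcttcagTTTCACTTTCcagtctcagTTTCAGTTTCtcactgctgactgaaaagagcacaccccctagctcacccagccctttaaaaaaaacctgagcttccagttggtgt
Ifit3, distal match, chr19:34583363-34583392, plus strand: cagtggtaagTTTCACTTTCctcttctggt
Ifit3, proximal match, chr19:34583397-34583426, plus strand: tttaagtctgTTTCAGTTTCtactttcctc
Oas1a, chr5:120907526-120907555, minus strand: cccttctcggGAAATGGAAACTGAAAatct
Irf3, chr7:44997398-44997647, plus strand: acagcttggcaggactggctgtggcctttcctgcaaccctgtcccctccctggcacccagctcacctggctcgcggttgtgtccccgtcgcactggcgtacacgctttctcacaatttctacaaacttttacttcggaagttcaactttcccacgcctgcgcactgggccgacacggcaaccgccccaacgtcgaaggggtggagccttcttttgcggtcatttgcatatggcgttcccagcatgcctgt

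Ifit1 and Ifit3 carry the same pair of matches, TTTCACTTTC further from the start and TTTCAGTTTC nearer to it, at 104 and 85 bases before the start in Ifit1 and at 156 and 122 bases in Ifit3. In Oas1a the 2 matches overlap. Across the 30 members with a promoter in the table, 9 held the core, or 30.0%, against 3.46% of the 27025 genes. By promoter it was 9 of the members' 36, against 2.98% of the 32851 promoters of that length. The 9 were Ifit1, Ifit3, Isg15, Oas1a, Oas3, Rsad2, Bst2, Trim30a and Stat2, of which 8 are effectors. Isg15 held 3 overlapping matches.

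Members with and without a match overlapped in their differences. The 5 measured members with a match ran from -2.38 in Ifit1 to -0.055 in Bst2. The 20 measured members with a searched promoter and no match ran from -1.28 in Oasl2 to 0.25 in Irf3. Their medians were -0.42 with a match and -0.23 without. Within the effectors alone they were -0.99 over 4 genes and -0.35 over 8. With so few genes a difference between the groups was not tested. The STAT core TTCNNNGAA, which reads the same on both strands, was held by Bst2, Eif2ak2, Ifit2, Ifnar2, Irf1 and Oas1a, 6 of the 30 members, against 8.13% of all genes. In Bst2 it overlaps the ISRE core. The full estrogen response element, which is GGTCA, any 3 bases and TGACC and also reads the same on both strands, was in 0 of the 30 members' windows and in 0.0666% of all genes'. These are matches of letters within 250 bases and say nothing of binding. Usp18, Rtp4, Oas2, Mx1, Mx2, Parp9, Parp14, Ifi27, Zbp1 and Dhx58 had no entry in the table.

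Oasl1 and Oasl2, neighbours in the oligoadenylate synthetase family, lay on opposite sides of 0. The family's enzymes sense double-stranded RNA and activate RNase L, while the Oasl proteins are related and lack or modify that activity. Oasl2 was at 6.64 in Ad-caERα and 7.92 in Ad-DsRed, or 2.42-fold lower. Oasl1, with no protein-coding gene between it and Oasl2, was at 6.48 in Ad-caERα and 6.34 in Ad-DsRed. Its difference of 0.14 was about the size of the spread between probe sets, against -1.28 for Oasl2.

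Oas1a and Oas2 passed the floor only through the Ad-DsRed array, so their folds are bounds. Oas1a was at 5.01 in Ad-caERα and 5.43 in Ad-DsRed, at least 1.25-fold lower. Oas2 was at 4.37 in Ad-caERα and 5.15 in Ad-DsRed, at least 1.03-fold lower. Oas2 is among the 9 members counted at 1.5-fold on the deposited values, and its difference was -0.044 with the Ad-caERα value raised to the floor. Oas3 was below the floor on both arrays, at 4.40 in Ad-caERα and 4.49 in Ad-DsRed.

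A protease gene of the ISG15 system and a ligase gene of the RIG-I pathway were both lower. Usp18, which removes ISG15 and also blocks signalling at IFNAR2, was at 5.38 in Ad-caERα and 6.84 in Ad-DsRed, or 2.74-fold lower. Its Ad-caERα signal lay close to the floor. Trim25, a ubiquitin ligase that activates RIG-I and is also responsive to estrogen, was at 7.88 in Ad-caERα and 8.24 in Ad-DsRed, or 1.28-fold lower.

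Rtp4, an interferon-induced chaperone of receptor transport that also restrains viral replication, was at 5.64 in Ad-caERα and 7.01 in Ad-DsRed, or 2.59-fold lower. The PARP genes code for ADP-ribosylating proteins of the interferon response. Parp14 was at 5.84 in Ad-caERα and 6.62 in Ad-DsRed, or 1.72-fold lower. Parp9 was at 6.14 in Ad-caERα and 6.54 in Ad-DsRed, or 1.32-fold lower. Dtx3l, which lies between them and encodes the ligase partner of PARP9, was no member and had a difference of -0.40, the same to 2 decimals as that of Parp9.

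Eif2ak2, Adar and Xaf1 were lower by less than 1.5-fold. Eif2ak2, which encodes the kinase PKR that halts translation, was at 8.06 in Ad-caERα and 8.41 in Ad-DsRed, a difference of -0.35. Adar, which edits adenosine to inosine in double-stranded RNA, had a difference of -0.16, at 8.45 in Ad-caERα and 8.61 in Ad-DsRed. Xaf1, a pro-apoptotic antagonist of XIAP, was at 7.75 in Ad-caERα and 8.16 in Ad-DsRed, a difference of -0.41. The difference of Adar was smaller than the SD of 0.27 over all measured genes, and those of Eif2ak2 and Xaf1 were larger.

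Bst2, Ifi35 and Ifi27 were close to 0. Bst2, the tetherin that holds budding virions, was at 6.56 in Ad-caERα and 6.61 in Ad-DsRed. Ifi35, a cytosolic partner of NMI, was at 8.60 in Ad-caERα and 8.67 in Ad-DsRed. Ifi27, a small mitochondrial and nuclear membrane protein, was at 10.15 in Ad-caERα and 9.99 in Ad-DsRed. The differences of Bst2 and Ifi35, at -0.055 and -0.072, were within the spread between probe sets, and that of Ifi27, at 0.16, was smaller than the SD over all measured genes.

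The dynamin-like GTPases and viperin could not be read. Mx2 was at 3.92 in Ad-caERα and 4.58 in Ad-DsRed, and Mx1 at 4.45 in Ad-caERα and 4.61 in Ad-DsRed. Rsad2, which encodes viperin, was at 4.84 in Ad-caERα and 4.87 in Ad-DsRed, and Trim30a, an inhibitor of Toll-like receptor signalling, at 4.22 in Ad-caERα and 4.72 in Ad-DsRed. All 4 were below 5.11 on both arrays, so no fold is given.

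**Figure D2:**
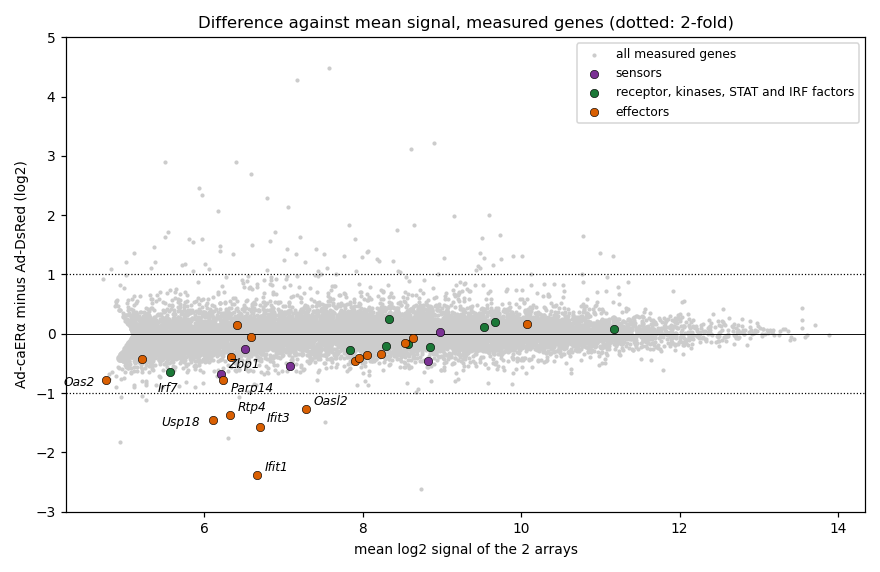
Difference of Ad-caERα minus Ad-DsRed (log2) against the mean log2 signal of the 2 arrays for 13554 measured genes in grey, with the members coloured by role and those at least 1.5-fold lower named. The 5 members past the lower dotted 2-fold line, Ifit1, Ifit3, Usp18, Rtp4 and Oasl2, all have a mean signal under 8.

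The larger differences sat among members with dim or middling probe sets, by the mean signal of the 2 arrays. That mean includes the Ad-caERα signal, so a gene's own lower signal there moves it down the scale. By the Ad-DsRed signal alone, Ifit2 at 8.13 and Xaf1 at 8.16 would stand above 8. Their differences were -0.45 and -0.41, and both are counted under 8 here. Of the 18 measured members with a mean signal under 8, 5 were lower by 2-fold and 9 by 1.5-fold. Among all 6420 measured genes under 8 those shares were 0.187% and 1.42%. Of the 14 members at 8 or above 0 were lower by 1.5-fold, against 0.407% of all measured genes there, a share at which 14 genes would show few or none. The median difference was -0.59 over the members under 8 and -0.11 over those at 8 or above, against -0.028 and 0.026 over all measured genes in the same ranges. The same order was seen within the effectors alone. Their median was -0.78 over the 13 under 8 and -0.16 over the 5 at 8 or above. Those 5, Trim25, Eif2ak2, Adar, Ifi35 and Ifi27, ran from -0.36 to 0.16. The median of -0.78 is the difference of Oas2, a gene whose fold is only a bound. Raising its Ad-caERα value to the floor moved that difference to -0.044. The middle value of the 13 would then be that of Ifit2, -0.45.

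Other genes of the pathway were set beside the members. Of 48 further interferon-stimulated genes, 27 were measured and 23 of these lay below 0, with a median of -0.14. None was past 2-fold, against 0.0959% of all measured genes lower and 0.59% higher. At such shares 27 genes would show few or none. At 1.5-fold 1 was lower and 1 higher, against 0.885% and 1.82% of all measured genes. Phf11d was lower, at 4.89 in Ad-caERα and 5.54 in Ad-DsRed, at least 1.35-fold because the dimmer value was below the floor. Lgals9, which encodes galectin-9, was 1.65-fold higher, at 9.70 in Ad-caERα and 8.98 in Ad-DsRed. The wider list therefore lay on the same side of 0 as the members but less far from it. The list was written with earlier results of these data known.

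Other sensing genes, taken as a mixed list of adaptors, kinases, further sensors and IRF factors, were centred near 0. Of 20 listed, 16 were measured, 7 below 0 and 9 above, with a median of 0.018 and 0 past 1.5-fold. Over all measured genes 0.885% were that much lower and 1.82% higher, shares at which 16 genes would show few or none. Sting1, the adaptor for cytosolic DNA, was at 8.76 in Ad-caERα and 8.90 in Ad-DsRed. Cgas, the DNA sensor that activates it, was below the floor on both arrays, at 4.43 in Ad-caERα and 4.72 in Ad-DsRed.

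Of 11 interferon genes with a value 5 were measured, 4 of them below 0, and none differed by 1.5-fold. The shares over all measured genes, 0.885% lower and 1.82% higher, would give few or none among 5. Ifnb1, the interferon β gene, was below the floor at 3.75 in Ad-caERα and 3.63 in Ad-DsRed. The measured ones were Ifnz, Ifnl2, Ifna5, Ifna2 and Ifng, with differences from -0.41 in Ifnl2 to 0.52 in Ifna2. The interferon α genes are near-identical copies, so their probe sets cannot be assigned to 1 gene with certainty.

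Negative regulators of the pathway showed no common direction, with 8 of 16 below 0. Socs1, which inhibits JAK kinases, was at 8.11 in Ad-caERα and 7.41 in Ad-DsRed, or 1.62-fold higher. It was the only 1 of the 16 past 1.5-fold, against 0.885% of all measured genes lower and 1.82% higher. A lower difference was seen in 98.7% of measured genes. Receptor genes for interferon γ and λ, with JAK2 and STAT3, had a median of -0.043 over 5 measured genes.

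**Figure D3:**
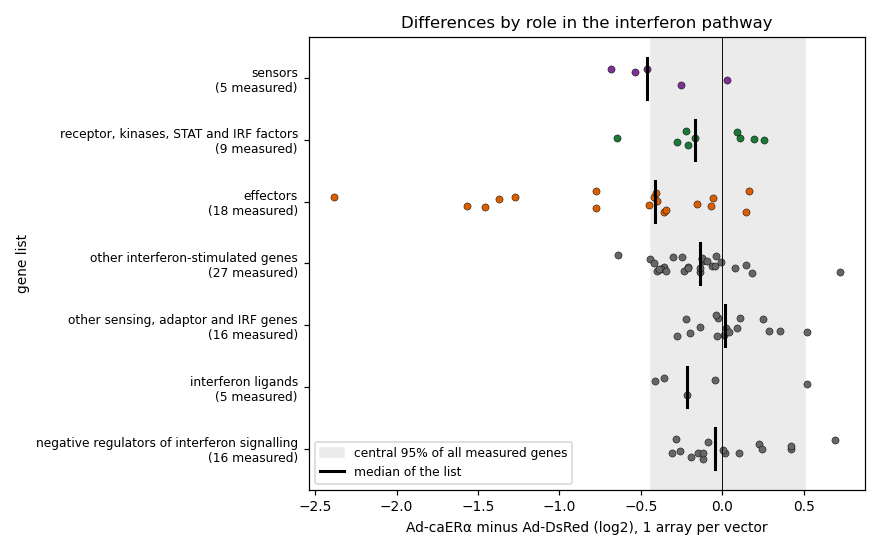
Difference of Ad-caERα minus Ad-DsRed (log2) for each measured gene of 7 lists, with a black line at each median and grey shading from -0.44 to 0.51, the central 95% of all measured genes. Sensors and effectors have medians of -0.47 and -0.41, the mixed list of other sensing, adaptor and IRF genes a median of 0.018, and the points furthest to the left are effectors.

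The identity of the cells was checked on the same arrays. All 12 myotube markers were above the floor, with 10 of 12 differences below 0, a median of -0.083 and summed log2 signals of 135 in Ad-caERα and 137 in Ad-DsRed. Of 14 leukocyte markers with a value 9 were below the floor on both arrays, among them Ptprc, Csf1r, Adgre1, Lyz2 and Itgam, and the summed signals were 72.7 in Ad-caERα and 73.5 in Ad-DsRed. Of the 5 above the floor, Ncam1 is also made by muscle, and none differed by 1.5-fold, against 0.885% lower and 1.82% higher over all measured genes. Of the 9 measured markers of undifferentiated or dividing myoblasts 8 were below 0, with a median of -0.23. Their summed signals were 84.3 in Ad-caERα and 86.0 in Ad-DsRed. Within this list Myf5, 1.64-fold higher, was the only measured marker above 0, and Pax7 had a difference of -0.14. The lowest were the dividing-cell markers Cenpe, Mki67 and Top2a, at -0.56, -0.44 and -0.44. Mki67 was at 10.54 in Ad-caERα and 10.97 in Ad-DsRed, so such markers were well above the floor in both cultures. Of 10 fibroblast markers 9 were measured, 7 below 0, with summed signals over all 10 of 82.1 in Ad-caERα and 83.4 in Ad-DsRed, and Fap, at 4.75 in Ad-caERα and 5.39 in Ad-DsRed, was at least 1.22-fold lower. Of 8 endothelial markers 5 were below the floor on both arrays, Pecam1 and Cdh5 included. The part of any of these in the interferon differences was not tested.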

How the data were processed

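Total RNA from 2 cultures was profiled on 1 Affymetrix array each. The authors deposited 1 log2 signal for each probe set and array. Per the submitters' processing notes, the authors made them with Affymetrix Expression Console and RMA, which corrects background, quantile-normalizes arrays and summarizes probes. Software versions, and how many arrays were normalized together, are not given in the sources used. Differences at weak signal are understated by RMA, and its quantile step cannot show a change in total mRNA.

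The table holds 35556 probe sets, of which the platform annotation gives 1 gene to 21789, several to 1621 and none to 12146. The gene identifiers of all 38 members with a value matched the RefSeq table of GRCm38.p6. Column medians were 6.02 in Ad-caERα and 6.05 in Ad-DsRed, and 62.2% and 63.2% of probe sets passed the floor in those arrays. The floor is the 95th percentile of the higher signal over 1210 receptor probe sets, whose differences had an SD of 0.22. No detection p was used, and the number of arrays limits the precision.

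Differences were computed across all genes and counted by size, at 2-fold and 1.5-fold. The code was tested on simulated data. The members and lists were chosen with earlier results of these data known. Every member is named, and of the other lists, genes past 1.5-fold and a few set genes. Ccl2, Dtx3l, Nlrc5, Ncam1, Pax7, Cenpe, Mki67, Top2a, Il10rb, Ifngr2 and the measured interferon genes were named after their values were seen. Alternatives covered the floor, normalization, probe-set rule, fold threshold and list summary. The tools were statsmodels 0.14.6 for loess, pandas 2.3.3 and numpy 2.4.6, run in Python 3.11.15.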

Additional observations from a re-analysis of the deposited data

How the results depend on the processing

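No paired analysis was possible because each vector has 1 array, and no replicate could be left out, so the spread between cultures is unknown. The 5 members lower and 0 higher by 2-fold were the same counts under both other floors and without a floor. They were also the same with values under 5.11 raised to it, with probe sets averaged and after centring, loess or quantile normalization. Both other floors, 6.16 and 6.17, changed only which genes were counted and left the differences as they were. They lie above the Ad-caERα signals of Ifit1, Ifit3, Usp18 and Rtp4, whose folds would there be only lower bounds. No values were raised to those floors. The counts also held when the floor of 5.11 was required on both arrays, an alternative chosen after seeing the data. The threshold itself moved them, to 9 lower at 1.5-fold and 1 lower at 3-fold. Over all genes the counts at 1.5-fold were 120 lower and 247 higher, and at 3-fold 4 lower and 27 higher, against 13 and 80 at 2-fold. The effector median of -0.41 became -0.67 as a mean. The median of the mixed list of other sensing, adaptor and IRF genes, 0.018, turned to -0.0076 without a floor, a size within the spread between probe sets. Of 280 recomputed member differences 279 moved by less than the spread between probe sets, and 1, that of Oas2, moved to -0.044 with low values raised to the floor. Many of the 280 could not move. A changed or absent floor leaves a difference as it was, and so does averaging for a member with 1 probe set. Only centring, loess and quantile normalization could change the difference of every member.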

Other observations

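Nlrc5, an interferon-inducible gene that drives MHC class I expression and can restrain sensor signalling, is covered by 19 single-gene probe sets, more than any member. Of the 18 above the floor, 14 had a lower signal in Ad-caERα, with a median difference of -0.22 and a range from -0.46 to 0.18. The brightest was at 8.98 in Ad-caERα and 9.29 in Ad-DsRed. The probe sets read the same 2 RNA samples and are not replicates, but their range shows how far single probe sets of 1 gene can lie apart on these arrays.

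The receptor genes of the interferon families lie side by side in the RefSeq annotation, in the order Ifnar2, Il10rb, Ifnar1 and Ifngr2, with 0 protein-coding genes between neighbours. Their differences were 0.19, 0.23, 0.11 and -0.07 on the log2 scale. Il10rb, a chain shared by the interleukin-10 and interferon λ receptors, was at 9.56 in Ad-caERα and 9.33 in Ad-DsRed.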
